A study of Mus musculus with 28 samples.

Results

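Interferon beta, encoded by Ifnb1, and the 4 subunits of the receptors for type I and type II interferon (Ifnar1, Ifnar2, Ifngr1 and Ifngr2) were followed in bone marrow-derived macrophages (BMDMs) treated with von Willebrand factor (VWF) or with bacterial lipopolysaccharide (LPS). The 5 genes were taken by name from the 54532 Ensembl genes of the deposited count file and not by a threshold on a measured value, with earlier results of these data known. The BMDMs were grown with M-CSF from bone marrow of C57/B6JB mice. Cultures received plasma-derived VWF at 10 µg/ml, LPS at 100 ng/ml or PBS in medium that contained added CaCl2 and M-CSF in every group, and RNA was taken at 3.5 h or 16 h. There were 5 control, 5 VWF and 4 LPS cultures at each time, 28 in all. The labels call them biological replicates without saying whether they came from separate mice, so that p values measure the spread between cultures.

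Macrophages make interferon beta when a pattern receptor such as TLR4, the LPS receptor, signals through the adaptor TRIF and activates the transcription factors IRF3 and NF-κB. Secreted interferon beta binds a receptor of 2 chains, IFNAR1 and IFNAR2, on the same and on neighbouring cells. The kinases TYK2 and JAK1 on these chains phosphorylate STAT proteins such as STAT2, which binds IRF9 and turns on the interferon-stimulated genes. Interferon gamma, which comes mainly from T cells and NK cells, uses a different pair of chains, IFNGR1 (which binds the ligand) and IFNGR2 (which carries JAK2 and completes the signal).

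In the GRCm38 annotation, Ifnb1 (ENSMUSG00000048806) is a gene of 1 exon on the minus strand of chromosome 4, from 88522025 to 88522774. Ifngr1 (ENSMUSG00000020009) has 8 exonic blocks on the plus strand of chromosome 10, from 19591949 to 19610229. The other 3 receptor genes lie on the plus strand of chromosome 16, in the order Ifnar2 (ENSMUSG00000022971, 91372783 to 91405589), Ifnar1 (ENSMUSG00000022967, 91485238 to 91507441) and Ifngr2 (ENSMUSG00000022965, 91547072 to 91565623). Together with Il10rb, a chain of the interleukin 10 receptor, they fill 192841 bases that hold 5 protein-coding genes. The fifth is Gm21970, a gene on the same strand that overlaps 9.46% of the exonic length of Ifnar2, so that a small part of the Ifnar2 reads can be counted for either gene or for none. The other 4 members overlap no annotated gene.

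The RefSeq promoter windows of the 5 genes (GRCm38.p6, 250 bases before to 50 after the start) were searched on both strands for the core of an IRF site (AANNGAAA), the interferon-stimulated response element (ISRE, a pair of GAAA with 2 bases between them), the GAS element (gamma-activated sequence, TTCNNNGAA), the NF-κB site (GGGA, any 2 bases, TTCC) and the TATA box (TATAAA). The upstream part of 4 windows is shown to compare the ligand gene with receptor genes that differ in these letters, in 5′ to 3′ direction of the gene, with every match in capitals. The windows are chr4:88522795-88523044 (minus strand) for Ifnb1, chr16:91372533-91372782 (plus) for Ifnar2, chr10:19591699-19591948 (plus) for Ifngr1 and chr16:91546809-91547058 (plus) for Ifngr2.
Ifnb1: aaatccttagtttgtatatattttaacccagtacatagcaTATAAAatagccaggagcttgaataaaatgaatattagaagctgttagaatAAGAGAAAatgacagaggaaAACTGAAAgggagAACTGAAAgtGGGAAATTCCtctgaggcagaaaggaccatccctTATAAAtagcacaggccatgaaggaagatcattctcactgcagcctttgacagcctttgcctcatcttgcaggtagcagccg
Ifnar2: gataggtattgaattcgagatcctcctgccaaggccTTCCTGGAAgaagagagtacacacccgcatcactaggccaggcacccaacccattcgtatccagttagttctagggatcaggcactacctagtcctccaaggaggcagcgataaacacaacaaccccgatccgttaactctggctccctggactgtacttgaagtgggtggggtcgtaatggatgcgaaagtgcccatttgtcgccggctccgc
Ifngr1: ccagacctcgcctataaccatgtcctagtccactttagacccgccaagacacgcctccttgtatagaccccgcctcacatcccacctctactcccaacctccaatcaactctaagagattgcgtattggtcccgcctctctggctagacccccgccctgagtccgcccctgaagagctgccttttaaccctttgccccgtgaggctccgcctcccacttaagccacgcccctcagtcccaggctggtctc
Ifngr2: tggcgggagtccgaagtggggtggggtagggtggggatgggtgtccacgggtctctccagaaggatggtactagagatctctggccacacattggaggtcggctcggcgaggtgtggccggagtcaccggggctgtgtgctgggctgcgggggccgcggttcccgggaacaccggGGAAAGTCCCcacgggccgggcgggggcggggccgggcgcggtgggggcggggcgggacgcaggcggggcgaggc

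The Ifnb1 window held 3 IRF cores, which began at positions -159, -139 and -126 from the RefSeq start, an NF-κB site at -116 and TATA boxes at -210 and -82. None of these matches overlapped another. An IRF core was present in 23.9% of all 32851 RefSeq promoter windows of this length, an NF-κB site in 1.47% and a TATA box in 13.6%. Ifnar2 held a GAS element at -214 and Ifnar1 held one that spans its start, at -5, and 8.30% of windows had one. Ifngr2 held an NF-κB site on its minus strand at -75, Ifngr1 held none of the 5 motifs, and no member held an ISRE, which 3.44% of windows contained. A match of letters describes the sequence and does not show that a factor binds there.

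Sequencing depth was high and similar across groups, with total counts between 41131209 and 77699206 per culture. Levels are CPM, that is reads of a gene scaled to the depth of its culture with TMM factors, and are written as mean ± SD. The summed level of 7 macrophage markers was 18358 to 25694 CPM with VWF at 16 h, against 4858 to 16238 CPM in controls and 6477 to 11906 CPM with LPS at that time, and 7157 to 13692 CPM over the 3 groups at 3.5 h. The 6 T cell markers summed to 0.857 to 8.66 CPM, and most of each group mean was Cd4, which reached 643 counts. Of the other 5, Cd3g reached 45 counts in a control culture at 16 h, Cd3e did not exceed 6 and the rest did not exceed 20. The 4 NK cell markers summed to 9.23 to 18.4 CPM with LPS and to at most 1.86 CPM in any control or VWF culture. Among them Ncr1 and Eomes did not exceed 6 counts, and Klrb1c averaged 0.730 CPM in controls and 0.139 CPM with LPS at 3.5 h. Klrk1, also listed for NK cells, averaged 10.6 CPM with LPS at 3.5 h and 17.5 CPM at 16 h, against at most 0.806 CPM in any control or VWF culture. The 5 markers of plasmacytoid dendritic cells summed to 167 to 191 CPM with LPS, 66.4 to 83.0 CPM with VWF and 49.1 to 58.1 CPM in controls at 3.5 h. Most of this was Tcf4 (166 to 189 CPM with LPS), which made this order, the one in which Ifnb1 also stood. Others averaged higher with VWF than with LPS at 3.5 h: Cox6a2 at 1.77 and 1.04 CPM, Ccr9 at 0.701 and 0.552 CPM, and Siglech at 0.212 and 0.165 CPM. Siglech reached at most 20 counts in any culture, Ccr9 70 and Klk1 1. Of the 5 markers of conventional dendritic cells, the summed level was 21.9 to 27.2 CPM with LPS and 13.5 to 19.2 CPM with VWF at 3.5 h, against 1.24 to 1.87 CPM in controls. At 16 h it was 13.7 to 30.8 CPM with LPS, 0.933 to 2.72 CPM with VWF and 0.717 to 2.05 CPM in controls. This sum is not broken down by marker here. The 5 fibroblast or stromal markers summed to between 17.6 and 407 CPM over all cultures, with ranges that overlapped between the groups. The 7 neutrophil markers summed to between 4.72 and 36.7 CPM. The part of any of these cells in the results below was not tested. In bulk RNA, fewer cells that express a gene and less RNA of it per cell cannot be told apart. Control replicate 5 at 16 h and LPS replicate 4 at 16 h stood apart, with a median correlation of 0.911 and 0.940 with the other cultures of their groups, where every other culture reached at least 0.974.

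Ifnb1 was almost silent in control cultures, was induced by both agonists at 3.5 h and had fallen steeply by 16 h. At 3.5 h the 5 control cultures had 0, 7, 2, 0 and 2 Ifnb1 reads. The 5 VWF cultures had 156, 232, 285, 195 and 189 reads. The 4 LPS cultures had 8754, 8019, 4022 and 5888 reads. Every VWF culture thus lay above every control culture, and every LPS culture above every VWF culture. At 16 h the control cultures had 1, 1, 1, 0 and 0 reads, the VWF cultures 11, 4, 4, 2 and 5, and the LPS cultures 119, 186, 57 and 168. The 3 groups kept their order at 16 h and again did not overlap, although the VWF cultures then held few reads.

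At 3.5 h the Ifnb1 level was 3.94 ± 1.30 CPM (SD, n = 5) after VWF, 170.5 ± 51.4 CPM (SD, n = 4) after LPS and 0.0417 ± 0.0558 CPM (SD, n = 5) in controls. In edgeR's quasi-likelihood test, with p values adjusted over all genes tested by the Benjamini-Hochberg method, Ifnb1 was higher with VWF than in controls by 6.64 on the log2 scale (SE 0.61, adjusted p = 3.86e-06), about 99.8-fold. With LPS it was higher than in controls by 12.08 (SE 0.46, adjusted p = 2.17e-09). Both folds rest on 11 control reads. Without control replicate 2, which held 7 of them, the log2 fold changes were 7.75 and 13.16. The direct comparison of the agonists does not involve the controls. Ifnb1 was 43.0-fold lower with VWF than with LPS (log2 fold change -5.42, SE 0.30, adjusted p = 4.72e-07).

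At 16 h the Ifnb1 level was 2.96 ± 1.24 CPM (SD, n = 4) with LPS, 0.0822 ± 0.0549 CPM (SD, n = 5) after VWF and 0.00846 ± 0.00796 CPM (SD, n = 5) in controls. With edgeR's filterByExpr, since Ifnb1 did not reach 10 TPM (reads scaled to gene length and depth) in these groups, it was lower with VWF than with LPS by a log2 fold change of -5.18 (SE 0.49, adjusted p = 1.14e-05), or 36.2-fold. The pooled ratio of LPS to control was 328 with a 95% exact Poisson interval of 112 to 1595, because the controls held only 3 reads. For VWF against control neither filter kept the gene, and the pooled ratio of 26 to 3 reads was 8.91 (95% exact Poisson interval 2.73 to 46.0), where the interval covers counting error only. From 3.5 h to 16 h Ifnb1 fell 46.9-fold in VWF cultures (log2 fold change -5.55, SE 0.42, edgeR adjusted p = 5.06e-07) and 56.7-fold in LPS cultures (log2 fold change -5.83, SE 0.41, edgeR adjusted p = 4.41e-06). The difference between the agonists at 16 h and that at 3.5 h were 0.26 apart on the log2 scale (SE 0.76, edgeR adjusted p = 0.794), so that a change in the gap was not detected at this precision.

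Ordered by level, Ifnb1 was highest with LPS at 3.5 h, followed by VWF at 3.5 h, LPS at 16 h, VWF at 16 h, control at 3.5 h and control at 16 h. The cultures of VWF at 3.5 h (2.40 to 5.44 CPM) and LPS at 16 h (1.37 to 4.23 CPM) overlapped, as did VWF at 16 h (0.0355 to 0.173 CPM) and control at 3.5 h (0 to 0.136 CPM).

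**Figure D1:**
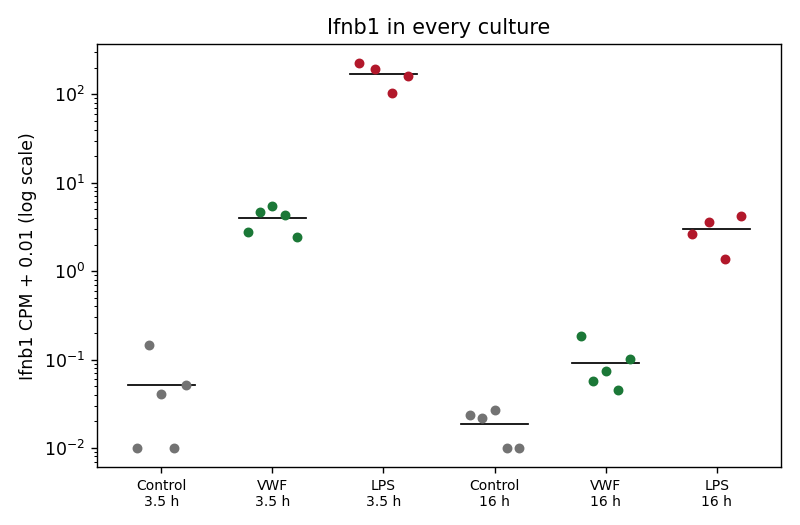
Ifnb1 in each of the 28 cultures, as CPM plus 0.01 on a log axis, by treatment and time, where each point is a culture and the line is the group mean. The LPS cultures at 3.5 h sit between 104 and 224 CPM, above the VWF cultures at 3.5 h (2.40 to 5.44 CPM), and both agonists are far lower at 16 h.

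Ifnb1 was the interferon gene with by far the most reads. Of 20 other interferon ligand genes (interferon alphas, epsilon, kappa, zeta, lambdas and gamma), 13 had no read in any culture, 6 did not exceed 10 reads in any culture and 1, Ifng, did. None reached the expression filter in any comparison. Ifng had 47 reads in all over the 4 LPS cultures at 3.5 h and 49 at 16 h, where 1 of the 4 cultures had 0 and the highest had 23. The controls held 0 and 1 reads in all and the VWF cultures 1 and 1. Against the floor of 3 reads over the control group, pooled Ifng was 29.8-fold higher with LPS at 3.5 h. Against the 0 control reads themselves, the lower 95% exact Poisson limit of the ratio was 23.3, which covers counting error only. The Ifng level itself was only 0.306 ± 0.176 CPM (SD, n = 4).

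The receptor genes, in contrast, were expressed in every culture and moved by small factors. Ifnar1, the chain that TYK2 binds, read 95.6, 110.3, 112, 146 and 122 CPM in the control cultures at 3.5 h. It read 253, 259, 273, 238 and 301 CPM with VWF. With LPS it read 181, 262, 289 and 229 CPM. Every treated culture exceeded every control culture, and the VWF and LPS cultures overlapped. At 16 h Ifnar1 read 84.9, 97.9, 95.1, 92.1 and 65.2 CPM in controls. With VWF it read 152, 159, 172, 120.5 and 141 CPM, and with LPS 223, 203, 233 and 147 CPM. Both agonists again lay above the controls without overlap, with LPS now above VWF in 3 of its 4 cultures.

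Ifnar2, the chain that JAK1 binds, read 76.5, 83.3, 75.9, 87.8 and 86.7 CPM in controls at 3.5 h. It read 172, 168, 164, 159 and 193 CPM with VWF. With LPS it read 101, 166, 148 and 146 CPM. The VWF and LPS cultures lay above the controls, and LPS replicate 1 was the lowest of the treated cultures. At 16 h it read 67.8, 73.2, 77.4, 76.6 and 30.3 CPM in controls. With VWF it read 108, 107, 116, 88.0 and 94.4 CPM, and with LPS 200, 177, 203 and 100.1 CPM. Control replicate 5 and LPS replicate 4, the cultures that stood apart, were the lowest of their groups.

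Both chains of the interferon beta receptor rose with VWF at 3.5 h. In edgeR, Ifnar1 was 2.30-fold higher than in controls (log2 fold change 1.20, SE 0.11, adjusted p = 3.41e-06) and Ifnar2 2.13-fold higher (log2 fold change 1.09, SE 0.08, adjusted p = 3.08e-07). With LPS, Ifnar1 was 2.08-fold higher (log2 fold change 1.06, SE 0.15, adjusted p = 7.20e-05) and Ifnar2 1.74-fold higher (log2 fold change 0.80, SE 0.13, adjusted p = 0.000241). At 16 h, Ifnar1 was still higher than in controls with VWF (log2 fold change 0.76, SE 0.14, adjusted p = 0.00187) and with LPS (1.25, SE 0.16, adjusted p = 0.000139). Ifnar2 was higher with LPS at 16 h (1.42, SE 0.30, adjusted p = 0.00269). Its value of 0.65 with VWF (SE 0.23) missed the threshold in edgeR, with an adjusted p of 0.0634, and passed without control replicate 5, at 0.46 and an adjusted p of 0.00209.

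Ifngr1, the chain that binds interferon gamma, behaved differently under the 2 agonists. At 3.5 h it read 77.5, 88.7, 90.3, 95.9 and 95.2 CPM in controls. With VWF it read 157, 163, 169, 149 and 176 CPM. With LPS it read 95.6, 103, 106 and 87.3 CPM. The VWF cultures lay above all the others, while the LPS cultures overlapped the controls. At 16 h it read 130.0, 148, 164, 147 and 97.8 CPM in controls. With VWF it read 127, 135, 133, 102 and 154 CPM, and with LPS 43.3, 47.7, 59.1 and 38.2 CPM. The VWF cultures now overlapped the controls, and every LPS culture lay below both.

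In edgeR, Ifngr1 was 1.85-fold higher with VWF than in controls at 3.5 h (log2 fold change 0.89, SE 0.08, adjusted p = 1.64e-06). Its LPS value was 0.15 (SE 0.09, adjusted p = 0.147). At 16 h the VWF value was -0.09 (SE 0.15, adjusted p = 0.747), while LPS lowered the gene 2.84-fold (log2 fold change -1.51, SE 0.18, adjusted p = 7.16e-05). In untreated cultures alone Ifngr1 rose with time (log2 fold change 0.62, SE 0.13, edgeR adjusted p = 0.00328), and in LPS cultures it fell with time (-1.03, SE 0.14, edgeR adjusted p = 0.000260). The effect of VWF on Ifngr1 was smaller at 16 h than at 3.5 h, by an interaction of -0.95 (SE 0.17, edgeR adjusted p = 0.000140, where 32.4% of the 8660 genes tested passed), and the LPS effect was lower at 16 h by -1.64 (SE 0.20, edgeR adjusted p = 2.89e-06, where 48.8% of 8748 passed).

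Ifngr2, the chain that carries JAK2, read 207, 204, 195, 185 and 182 CPM in controls at 3.5 h. With VWF it read 235, 279.7, 316, 287 and 246 CPM. With LPS it read 256, 203, 262 and 244 CPM. The VWF cultures lay above the controls, and 1 LPS culture fell among them. At 16 h Ifngr2 read 142, 144, 152, 155 and 283 CPM in controls. With VWF it read 207, 213, 204, 270.4 and 193 CPM, and with LPS it read 319.5, 354, 326 and 528 CPM. Control replicate 5 lay above every VWF culture, and the LPS cultures exceeded all the others.

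In edgeR, Ifngr2 was 1.43-fold higher with VWF than in controls at 3.5 h (log2 fold change 0.51, SE 0.09, adjusted p = 0.000468) and 1.26-fold higher with LPS (0.33, SE 0.09, adjusted p = 0.00950). The LPS value missed the threshold in edgeR with all 6 groups in one fit (0.32, adjusted p = 0.115) and with the replicate number as a block (0.30, adjusted p = 0.0541). At 16 h it was 2.24-fold higher with LPS (1.16, SE 0.25, adjusted p = 0.00365). The VWF value at 16 h was 0.31 (SE 0.19, adjusted p = 0.291), and without control replicate 5 it was 0.54 with an adjusted p of 0.000984. The effect of LPS on Ifngr2 was larger at 16 h than at 3.5 h by 0.84 (SE 0.28, edgeR adjusted p = 0.0202). The interactions of Ifnar1 and Ifnar2 with time did not pass for either agonist, at -0.42 each for VWF and at 0.21 and 0.64 for LPS, and those for VWF passed without control replicate 5 at 16 h, at -0.50 and -0.59.

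**Figure D2:**
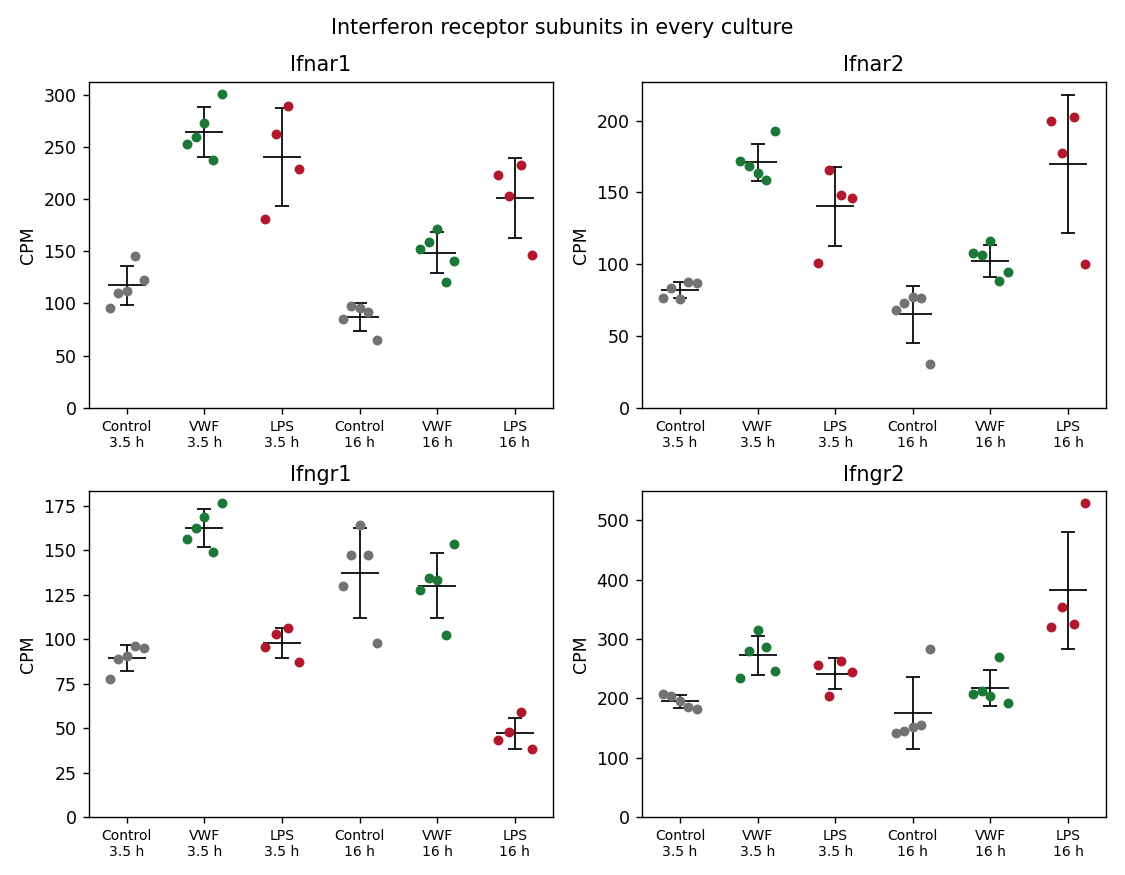
The 4 receptor subunit genes in every culture, as CPM on axes that start at 0, by treatment and time, where points are cultures, the short line is the mean and bars are 1 SD (n = 5 for control and VWF, n = 4 for LPS). Ifngr1 is the gene in which LPS at 16 h (38.2 to 59.1 CPM) lies below every other culture, while Ifngr2 is highest in that group.

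At 3.5 h all 5 members passed the adjusted p threshold with VWF, where 43.6% of the 8200 genes tested did, and 4 passed with LPS, where 65.7% of the 8190 genes tested did. Ifnb1 reached 10 TPM in no control culture, so that the filter favoured its rise. At 16 h, 1 of the 4 receptor genes passed with VWF, where 27.7% of genes did, and all 4 passed with LPS, where 53.7% did. The p threshold alone therefore says little about these genes in the LPS comparisons, and the sizes and directions carry the description. The scaling between cultures also matters for LPS. When counts were scaled by library size alone, the median log2 fold change of all genes with LPS was -0.54 in place of -0.02 at 3.5 h and -0.57 in place of -0.03 at 16 h. At 3.5 h the LPS values of Ifngr1 and Ifngr2 then turned to -0.37 (adjusted p = 0.00378) and -0.19 (adjusted p = 0.0634), both above that shifted median. That of Ifnar2 was 0.27 (adjusted p = 0.0729). With VWF the median moved to -0.22 at 3.5 h and all 4 receptor genes stayed higher.

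Ordered by level, Ifnar1 was highest with VWF at 3.5 h (264.5 ± 23.8 CPM, SD, n = 5), followed by LPS at 3.5 h (240.2 ± 46.5, n = 4), LPS at 16 h (201 ± 38.5, n = 4), VWF at 16 h (149 ± 19.4, n = 5), control at 3.5 h (117 ± 18.5, n = 5) and control at 16 h (87.0 ± 13.1, n = 5). Each of these groups overlapped its neighbour in the order. Ifnar2 ran from 171 ± 13.1 CPM with VWF at 3.5 h and 169.9 ± 47.9 with LPS at 16 h, through 140.4 ± 27.6 with LPS at 3.5 h and 103 ± 11.2 with VWF at 16 h, to 82.0 ± 5.56 and 65.0 ± 19.8 in controls at 3.5 h and 16 h. VWF at 16 h and control at 3.5 h were the neighbours that did not overlap. Ifngr1 ran from 163 ± 10.6 CPM with VWF at 3.5 h, through 137 ± 25.2 in controls at 16 h, 130.2 ± 18.5 with VWF at 16 h, 97.9 ± 8.39 with LPS at 3.5 h and 89.5 ± 7.39 in controls at 3.5 h, to 47.1 ± 8.90 with LPS at 16 h, and only this last step was free of overlap. Ifngr2 ran from 382 ± 98.8 CPM with LPS at 16 h, through 273 ± 32.7 with VWF at 3.5 h, 241 ± 26.4 with LPS at 3.5 h, 217 ± 30.5 with VWF at 16 h and 195 ± 11.1 in controls at 3.5 h, to 175 ± 60.6 in controls at 16 h, and only its first step was free of overlap.

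Levels of different genes were compared as CPM per kilobase of exon. In controls at 3.5 h, Ifngr2 stood at 51.7, Ifngr1 at 31.4, Ifnar2 at 24.6, Ifnar1 at 19.7 and Ifnb1 at 0.0555 CPM per kb. With LPS at 3.5 h Ifnb1 reached 227 CPM per kb, above Ifngr2 at 64.1, Ifnar2 at 42.2, Ifnar1 at 40.4 and Ifngr1 at 34.4. With VWF at 3.5 h Ifnb1 reached 5.25 CPM per kb, below every receptor gene, the lowest of which was Ifnar1 at 44.5. On this scale the ligand message was thus the most abundant of the 5 with LPS and the least abundant with VWF. With LPS at 16 h, Ifnb1 was back at 3.94 CPM per kb, with Ifngr2 at 101, Ifnar2 at 51.0, Ifnar1 at 33.9 and Ifngr1 at 16.5.

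The size of the ligand difference between the agonists was set beside that of the receptors. At 3.5 h, where mean Ifnb1 was 43.3 times as high with LPS as with VWF, mean Ifnar1 was 0.908 times, Ifnar2 0.821 times, Ifngr1 0.602 times and Ifngr2 0.885 times as high. Among the receptor genes Ifngr1 alone passed between the agonists in edgeR with TMM factors at 3.5 h, with VWF above LPS (log2 fold change 0.75, SE 0.08, adjusted p = 3.52e-05). The VWF minus LPS values were 0.16 for Ifnar1 (SE 0.13, adjusted p = 0.310), 0.31 for Ifnar2 (SE 0.13, adjusted p = 0.0709) and 0.20 for Ifngr2 (SE 0.11, adjusted p = 0.144). These sizes and errors do not show that the receptor levels were equal, and they are small beside the ligand difference of -5.42. With library size scaling, under which the median of all genes moved from 0.02 to 0.30, the values were 0.45 for Ifnar1 (adjusted p = 0.0110), 0.60 for Ifnar2 (adjusted p = 0.00303) and 0.48 for Ifngr2 (adjusted p = 0.00138), and all 3 passed. The ligand and Ifngr1 passed at 3.5 h where 50.2% of the 7500 genes tested did.

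At 16 h, where mean Ifnb1 was 36.0 times as high with LPS, all 4 receptor genes differed between the agonists, where 60.5% of the 7574 genes tested did. In edgeR, Ifnar1 was lower with VWF than with LPS by a log2 fold change of -0.43 (SE 0.15, adjusted p = 0.0327), Ifnar2 by -0.73 (SE 0.20, adjusted p = 0.00915) and Ifngr2 by -0.81 (SE 0.16, adjusted p = 0.00189). Ifngr1 was higher with VWF, 2.77-fold (log2 fold change 1.47, SE 0.16, adjusted p = 2.51e-05). With library size scaling, under which the median of all genes moved from 0.00 to 0.44, Ifnar1 stood at 0.00 (adjusted p = 0.995) and Ifnar2 at -0.30 (adjusted p = 0.262), while Ifngr1 and Ifngr2 kept direction and threshold. The Ifnar1 difference is also the one that lost its threshold without any 1 of 6 cultures, 3 with LPS and 3 with VWF, with values between -0.56 and -0.36 over all 9 omissions.

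For each receptor gene the difference between the agonists changed with time. The VWF minus LPS value moved from 3.5 h to 16 h by -0.62 for Ifnar1 (SE 0.20, edgeR adjusted p = 0.0169), by -1.05 for Ifnar2 (SE 0.24, edgeR adjusted p = 0.00138), by -1.03 for Ifngr2 (SE 0.21, edgeR adjusted p = 0.000580) and by 0.70 for Ifngr1 (SE 0.17, edgeR adjusted p = 0.00237), where 52.7% of the 8217 genes tested passed. With time alone, without an agonist, Ifnar1 was lower at 16 h (-0.42, SE 0.14, edgeR adjusted p = 0.0299), Ifngr1 was higher, and Ifnar2 (-0.33, SE 0.21) and Ifngr2 (-0.14, SE 0.19) did not pass, where 41.4% of the 8333 genes tested did. Within VWF cultures, Ifnar1 (-0.82, SE 0.11) and Ifnar2 (-0.73, SE 0.09) fell from 3.5 h to 16 h, with edgeR adjusted p values of 3.58e-05 and 3.11e-05, and Ifngr1 (-0.31, SE 0.10) and Ifngr2 (-0.32, SE 0.11) fell less, with edgeR adjusted p values of 0.0183 and 0.0220, where 68% of the 7927 genes tested passed. Within LPS cultures the same genes stood at -0.23 (SE 0.18) and 0.30 (SE 0.23), with edgeR adjusted p values of 0.300 and 0.284, while Ifngr2 rose by 0.69 (SE 0.18, edgeR adjusted p = 0.00920), where 60.9% of the 6987 genes tested passed. The time-dependent change of Ifnar1 lost its threshold without a filter on low counts (-0.56, adjusted p = 0.0655) and with library size scaling (-0.45, adjusted p = 0.119).

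**Figure D3:**
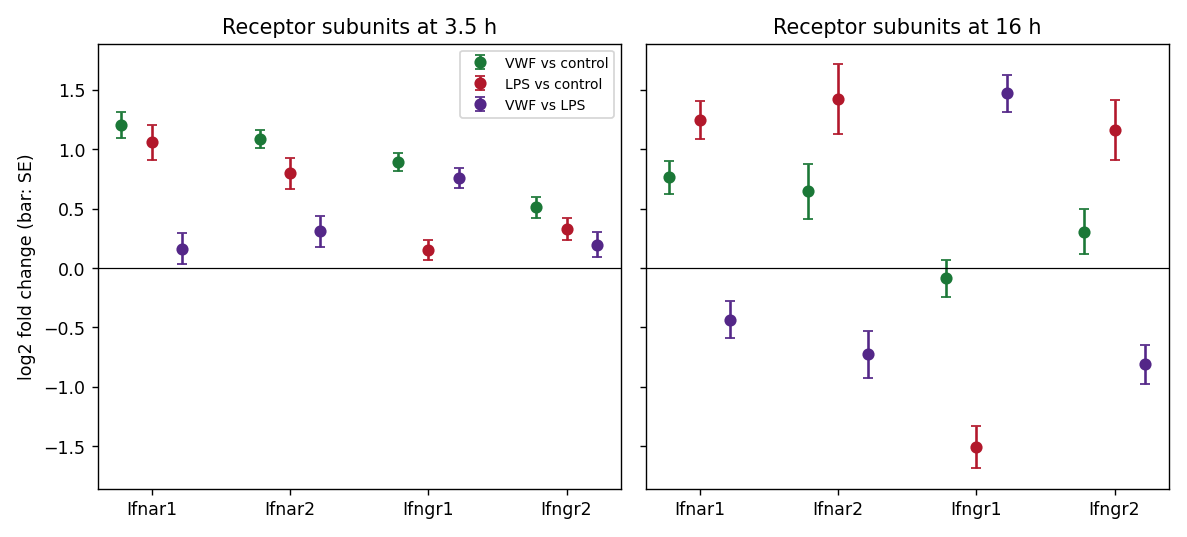
Log2 fold changes of the 4 receptor subunit genes at 3.5 h (left) and 16 h (right) for each agonist against control and for VWF against LPS, where bars are 1 SE of the edgeR fit and values above 0 mean higher in the first-named group. Ifngr1 is the gene with opposite signs from the other 3 at 16 h, at -1.51 for LPS over control and 1.47 for VWF over LPS.

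The balance of the 2 chains within a receptor does not depend on the scaling between cultures, and was compared as the TPM ratio in each culture. The ratio of Ifngr1 to Ifngr2 was 0.612 ± 0.0817 (SD, n = 5) in controls, 0.799 ± 0.114 (SD, n = 5) with VWF and 0.543 ± 0.0879 (SD, n = 4) with LPS at 3.5 h. At 16 h it was 1.14 ± 0.392 in controls and 0.814 ± 0.199 with VWF, and 0.173 ± 0.0593 with LPS. The LPS cultures at 16 h, which ranged from 0.0956 to 0.240, lay below every other culture of the study. Exact two-sided permutation tests of the mean log2 ratio, adjusted over 12 tests, gave an adjusted p of 0.0476 in 4 comparisons, at 3.5 h for VWF against control (0.38) and against LPS (0.56), and at 16 h for LPS against control (-2.69) and against VWF (2.27 for VWF minus LPS). The exact p before adjustment was 0.0159 in each, which is the smallest that 5 against 4 cultures can give, while 5 against 5 can reach 0.00794.

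The ratio of Ifnar1 to Ifnar2 varied less, from 0.682 ± 0.0925 (SD, n = 4) with LPS at 16 h to 0.964 ± 0.103 (SD, n = 4) with LPS at 3.5 h. None of its 6 comparisons passed the exact permutation test, with adjusted p values from 0.0952 to 0.889. The exact permutation p before adjustment was below 0.05 in 2 of them, both at 0.0476.

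**Figure D4:**
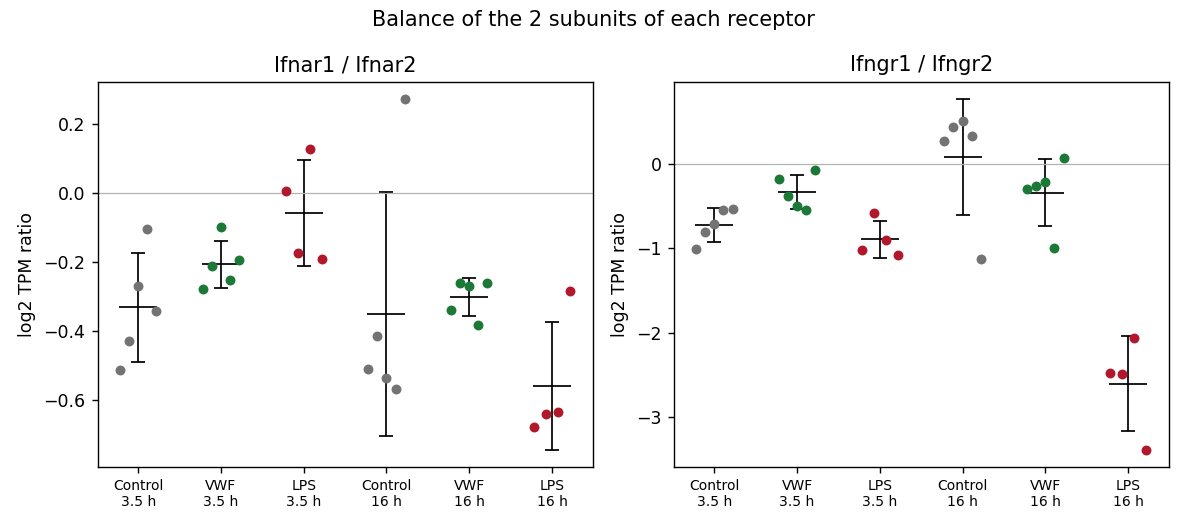
Log2 TPM ratio of the 2 subunit genes of the interferon beta receptor (left, Ifnar1 over Ifnar2) and of the interferon gamma receptor (right, Ifngr1 over Ifngr2) in every culture, where the short line is the mean and bars are 1 SD. On the right, the 4 LPS cultures at 16 h average -2.60, against -0.34 with VWF and 0.08 in controls at that time.

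Genes that act below the receptors were described from lists. Some genes are in more than 1 list, so that the list counts are not separate results. Isg15 and Usp18 are in the feedback and type I response lists. Irf7 is in the induction and type I response lists, and Irf1 in the induction and interferon gamma response lists. All 5 genes of the list of receptor kinases, Stat2 and Irf9 rose with VWF at 3.5 h and 4 rose with LPS in edgeR, with list medians of 1.77 and 2.35 on the log2 scale beside 0.00 and -0.02 over all genes tested, of which 43.6% and 65.7% passed in either direction. With VWF at 3.5 h, Jak2, the kinase of IFNGR2, rose by 3.17, Stat2 by 3.24, Irf9 by 1.77, Tyk2 by 0.92 and Jak1 by 0.57. With LPS these values were 3.48, 3.61, 2.35, 0.37 and 0.44, and that of Tyk2 did not pass (adjusted p = 0.0666). Between the agonists at 3.5 h, Irf9 (-0.57) was lower with VWF, Tyk2 (0.57) was higher, and Jak1, Jak2 and Stat2 did not pass. With library size scaling 2 of the 5 were higher and 1 was lower. At 16 h, 2 of the 5 were higher with VWF than in controls (Stat2 and Irf9), where 27.7% of all genes passed, and 4 were lower with VWF than with LPS, where 60.5% did, the exception being Jak1 (-0.38, adjusted p = 0.0932). The list median of VWF against LPS went from -0.29 at 3.5 h to -1.49 at 16 h, beside 0.02 and 0.00 over all genes.

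Genes that feed back on the receptors were also induced. Of the 8 tested, 6 rose with VWF at 3.5 h and 6 rose with LPS. Of all genes, 43.6% and 65.7% passed in either direction, so that the number passing with LPS is near that share. That share does not speak to direction. The list medians were 3.10 and 4.86 on the log2 scale, beside 0.00 and -0.02 over all genes. Scaled by library size, 5 rose with VWF, and with LPS 5 rose and 2 fell. Usp18 and Socs1 reached 10 TPM in no control culture, so that the filter favoured their rise. Socs1, a suppressor of JAK kinases, was 6.04 higher on the log2 scale with VWF and 8.63 higher with LPS than in controls. Its level was 121 ± 37.8 CPM (SD, n = 5) after VWF and 729.6 ± 103 CPM (SD, n = 4) with LPS, and it was lower with VWF by a log2 fold change of -2.58 (SE 0.22, edgeR adjusted p = 6.32e-06). Usp18, which occupies IFNAR2 and blocks further signalling, was 5.26 higher with VWF and 7.30 higher with LPS, and Isg15, which stabilises USP18 in human cells, 5.62 and 7.89. Ptpn2, a phosphatase of JAK1, stood at 0.93 and 2.42.

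Socs3, which acts mainly on receptors of the interleukin 6 family, was close under both agonists at 3.5 h (7.33 and 7.89), with a difference of -0.54 (SE 0.15, edgeR adjusted p = 0.0144), and far lower with VWF at 16 h (-4.33, SE 0.25, edgeR adjusted p = 4.76e-07). Of the phosphatases Ptpn6 and Ptpn11 and the STAT inhibitor Pias1, Ptpn11 alone passed with VWF at 3.5 h (0.38) and Pias1 alone with LPS (0.51). At 16 h, 3 of 7 feedback genes tested were higher with VWF than in controls and 1, Ptpn6, was lower (-0.44), where 27.7% of all genes passed. Against LPS, 7 of 8 were lower with VWF at 16 h, where 60.5% of all genes passed, with values of -4.11 for Socs1, -3.46 for Usp18, -3.49 for Isg15, -1.40 for Ptpn2, -1.33 for Ptpn6 and -0.23 for Pias1. With library size scaling 6 of the 8 were lower and 1 was higher. For VWF against LPS at 16 h, Socs1 reached 10 TPM through the LPS cultures alone, so that the filter favoured its direction.

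The class II cytokine receptors are the structural relatives of the interferon receptors. Il10ra, the ligand-binding chain for interleukin 10, rose from 72.7 ± 4.57 CPM (SD, n = 5) in controls to 239.7 ± 18.4 CPM (SD, n = 5) after VWF and 464 ± 22.9 CPM (SD, n = 4) with LPS at 3.5 h. It was lower with VWF than with LPS, by -0.93 at 3.5 h (SE 0.08, edgeR adjusted p = 5.73e-06) and by -0.62 at 16 h (SE 0.07, edgeR adjusted p = 3.29e-05). Il10rb, which lies between Ifnar2 and Ifnar1 on chromosome 16, stood at -0.09 (SE 0.08) with VWF and -0.16 (SE 0.09) with LPS at 3.5 h and did not pass, with edgeR adjusted p values of 0.398 and 0.130, while both of its neighbours rose. At 16 h it was higher with LPS by 0.73 (SE 0.12, edgeR adjusted p = 0.000705). The annotated span of Gm21970 overlaps that of Il10rb as well as that of Ifnar2, and its effect on the Il10rb counts was not tested. F3, tissue factor, the starter of coagulation, was at 52.7 ± 6.38 CPM (SD, n = 4) with LPS at 3.5 h, compared with 5.56 ± 0.947 CPM after VWF and 2.23 ± 0.945 CPM in controls (SD, n = 5 each). Il20rb reached 27.4 ± 4.78 CPM (SD, n = 4) with LPS at 16 h, against 1.95 ± 0.307 CPM (SD, n = 5) with VWF. Il20ra, its partner chain, did not exceed 21 reads in any culture and was not tested.

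The genes listed for Ifnb1 induction through TLR4, which include Tlr4 itself, Cd14 and Ly96, did not move as a block. Of 17 tested for VWF against control at 3.5 h, 12 rose and 3 fell (7 and 3 with library size scaling), where 43.6% of all genes passed in either direction. Of 16 tested for LPS, 10 rose and 4 fell (9 and 6 with library size scaling), where 65.7% of all genes passed. Between the agonists at 3.5 h, 5 of 17 were higher and 8 lower with VWF, with a list median of -0.34 beside 0.02 over all genes, of which 50.2% passed. Scaled by library size, 7 were higher and 7 lower. Ticam2 reached 10 TPM at 3.5 h through the VWF cultures alone, so that the filter favoured a higher value with VWF. Irf8, a factor of macrophage interferon gene transcription, read 1008 ± 189 CPM (SD, n = 4) with LPS, 103 ± 16.2 CPM after VWF and 155 ± 28.3 CPM in controls (SD, n = 5 each) at 3.5 h. It was lower with VWF than with LPS by -3.26 (SE 0.16, edgeR adjusted p = 1.73e-07). Irf1, an activator of interferon and interferon-stimulated genes, was lower by -2.03 (SE 0.12, edgeR adjusted p = 7.38e-07). At 16 h none was higher with VWF and 11 of 16 were lower, where 60.5% of all genes passed in either direction. The number that passed is near that share, which does not speak to direction. The list median was -0.99 beside 0.00 over all genes. With library size scaling 4 were higher and 9 lower. The largest differences were those of Cd14, the LPS co-receptor (-3.18, SE 0.14, edgeR adjusted p = 8.15e-08), which with VWF read 2585 ± 419 CPM (SD, n = 5) at 3.5 h and 397 ± 31.3 CPM (SD, n = 5) at 16 h, and of Irf1 (-2.61).

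The interferon-stimulated genes were lower with VWF than with LPS at 3.5 h, as was the ligand. All 26 genes of the type I response list rose with VWF and with LPS at both times, and all 26 were lower with VWF than with LPS at both times, where between 27.7% and 65.7% of all genes passed in either direction. Of the 26, 20 reached 10 TPM in some control culture. Mx1, Mx2, Oasl1, Usp18, Ifi44 and Isg20 did not, so that the filter favoured their rise against control. The medians with VWF were 3.01 at 3.5 h and 2.92 at 16 h on the log2 scale. With LPS they were 4.69 and 6.06. Over all genes tested the medians lay between -0.03 and 0.00. Between the agonists the list median was -1.73 at 3.5 h and -2.52 at 16 h, beside 0.02 and 0.00. The counts were the same without control replicate 5 or LPS replicate 4 at 16 h, without any other single culture and with library size scaling.

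Cmpk2, a mitochondrial nucleotide kinase induced by interferon, was lower with VWF than with LPS by -3.01 at 3.5 h (SE 0.22, edgeR adjusted p = 2.37e-06) and by -6.49 at 16 h (SE 0.25, edgeR adjusted p = 4.81e-08). Isg20, an RNA exonuclease, was lower by -2.84 at 3.5 h (SE 0.26, edgeR adjusted p = 8.43e-06). Rsad2, which encodes the antiviral enzyme viperin, read 2053 ± 648 CPM (SD, n = 5) after VWF and 14081 ± 1411 CPM (SD, n = 4) with LPS at 3.5 h. At 16 h it read 96.9 ± 31.2 CPM (SD, n = 5) after VWF and 11782 ± 1489.5 CPM (SD, n = 4) with LPS, the steepest difference of the list (-6.92, SE 0.30, edgeR adjusted p = 8.47e-08).

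The interferon gamma response list overlaps the reach of interferon beta, since many of its genes answer to both. Of its 14 genes, 8 of the 11 tested rose with VWF at 3.5 h and all 12 tested rose with LPS, and 9 of 12 were lower with VWF than with LPS. Of all genes 43.6%, 65.7% and 50.2% passed in these comparisons, and with library size scaling the 3 counts were 8, 8 and 8. The list medians were 3.14, 5.81 and -1.87 on the log2 scale, beside 0.00, -0.02 and 0.02 over all genes. At 3.5 h Gbp3, Gbp5 and Iigp1 reached 10 TPM in no control culture, and Cxcl9 reached it through the LPS cultures alone. The filter thus favoured the direction of these genes. At 16 h all 12 tested were lower with VWF (10 of 12 with library size scaling), with a list median of -2.90 beside 0.00 over all genes, of which 60.5% passed. Gbp5, Iigp1 and Cxcl9 reached 10 TPM in this comparison through the LPS cultures alone, so that the filter favoured a lower value with VWF. Cxcl9, a T cell chemoattractant, averaged 8.51 ± 1.51 CPM (SD, n = 5) after VWF and 288 ± 33.3 CPM (SD, n = 4) with LPS at 3.5 h, a log2 difference of -5.06 (SE 0.15, edgeR adjusted p = 2.90e-08). At 16 h the difference was -6.62 for Cxcl9 and -6.53 for Gbp5, a guanylate-binding protein that helps inflammasome assembly. Iigp1, an immunity-related GTPase, was lower with VWF by -3.47 at 3.5 h. The MHC class II genes H2-Aa, H2-Ab1 and H2-Eb1, chosen after their values were seen, differed less at 3.5 h, with values of -0.33, -0.01 and -0.34 that did not pass.

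**Figure D5:**
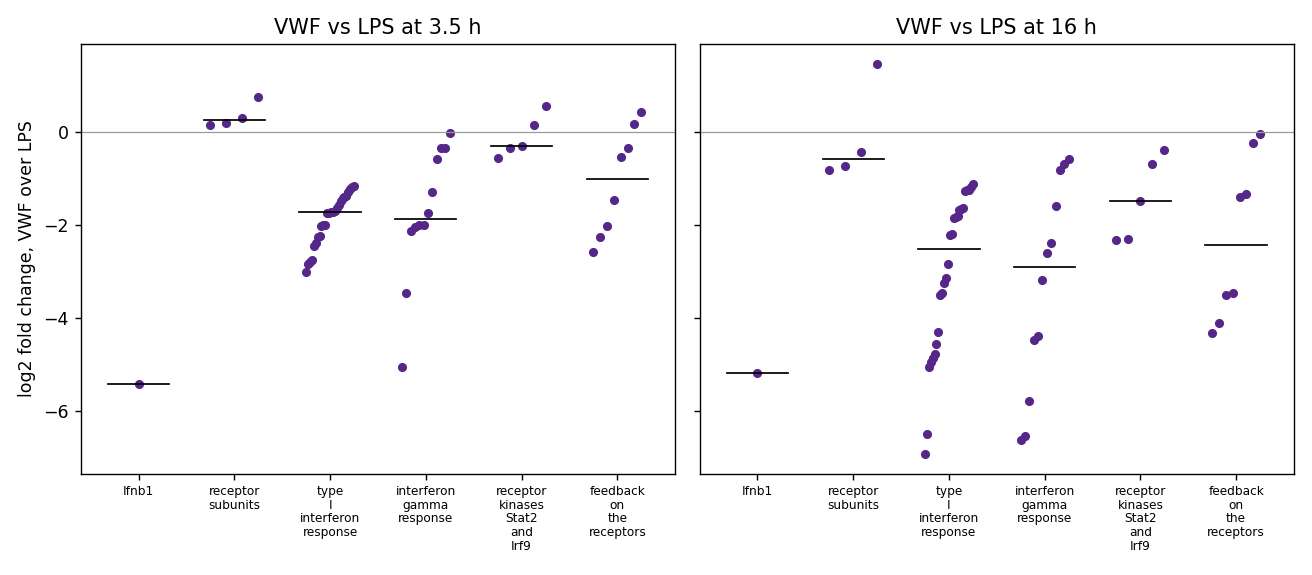
Log2 fold change of VWF over LPS at 3.5 h (left) and 16 h (right) for Ifnb1, the 4 receptor subunit genes and the tested genes of 4 lists, where each point is a gene and the line is the median of its column. At 3.5 h the type I response list has a median of -1.73 and Ifnb1 lies at -5.42, while the receptor subunits lie between 0.16 and 0.75.

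The genes whose log2 CPM was most like that of each member over the 28 cultures were taken from 8311 protein-coding genes, as a description, since the cultures share treatments and times. For Ifnb1 they were Dcp2, Il33 and Il10, each with a Pearson r of 0.982. For Ifnar1 the first 2 were Susd6 and Birc3 (0.977 and 0.961), and for Ifnar2 Tma16, Gnb1 and Igsf6 (0.978, 0.961 and 0.960). For Ifngr1 they were Nde1, Phf19 and Phf10 (0.945, 0.913 and 0.906), and for Ifngr2 Fam192a, Chordc1 and Ciao2b (0.934, 0.907 and 0.899). No member was among the 3 nearest genes of another member.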

How the data were processed

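Bulk RNA sequencing was done in 28 BMDM cultures. The authors mapped paired-end reads to GRCm38 (mm10) with STAR, and the values the authors deposited are whole-number read counts per gene, without normalization or a filter. Which annotation and strand setting were used for counting, and how multi-mapping reads were treated, is not given in the sources used here. Cultures were grouped by their labels, and no column was left without a sample.

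Exon lengths of GENCODE M21 were used here to turn the counts into TPM. As in the study's methods, a comparison kept genes with at least 10 TPM in 1 of its cultures. A gene could thus be kept through 1 group alone, and the filter then favoured a higher value in that group. Groups were compared with edgeR's quasi-likelihood test (edgeR 4.0.16, R 4.3.3) with robust dispersion and TMM factors, and p values were adjusted over all genes tested by the Benjamini-Hochberg method. The study used DESeq2, which was an alternative here (version 1.42.0). A gene was said to change at an adjusted p of 0.05. The counts of called genes also asked for an absolute log2 fold change above 1. Ifnb1 at 16 h was fitted with the filter of filterByExpr where it was under 10 TPM. The scripts were tested on simulated data.

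Subunit ratios were compared with exact two-sided permutation tests over cultures, adjusted over 12 tests. Ratios of few reads have 95% exact Poisson intervals, and a group without reads has a floor of 3 reads. Motifs were searched in RefSeq windows of GRCm38.p6. The other settings tried were DESeq2, library size or median-of-ratios scaling, filterByExpr or no filter, 1 fit over all 6 groups, a block for the replicate number, no fold threshold, group medians for the ratios and leaving out each culture. Counts of list genes without control replicate 5 or LPS replicate 4 at 16 h and with library size scaling were added after seeing the data.

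The members and the lists were chosen with earlier results of these data known. Genes named are the members, the 3 genes most like each in pattern, ligands and class II receptors with over 10 reads in a culture, the tested genes of the list of kinases, Stat2 and Irf9 and of the feedback list, and for the other lists the 2 with the largest VWF against LPS difference at each time. The MHC class II genes and single cell type markers are named beyond this rule, after their values were seen. Some genes are also named beyond it to state the limits of the filter or the make-up of the lists. A gene of the kinase list and a gene near Ifnar1 in pattern are not reported here, and the counts and medians of that list leave it out. Deviations of same-numbered cultures from their group means correlated over 0.1 in every pair only for VWF against LPS at 16 h (0.160 to 0.781 over 4 pairs), where the labels do not say what a number stands for. Over 52 pairs of cultures within groups, the lowest chi-square per degree of freedom was 15.8, and none was treated as a duplicate.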

Additional observations from a re-analysis of the deposited data

Results flagged for a closer look

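Of 30 sets of cultures (5 members in 6 groups), 4 held a culture far from the others of its group by Dixon's test, which chance gives in about 1 of 20 sets. Control replicate 5 at 16 h read 30.3 CPM for Ifnar2, the lowest of its group, and 283 CPM for Ifngr2, the highest. LPS replicate 4 at 16 h read 528 CPM for Ifngr2 and VWF replicate 4 at 16 h read 270.4 CPM, each the highest of its group. The cause of these values was not tested.

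Of 15 tests of a difference between effects, 7 passed in edgeR. Of all genes tested, 32.4% passed for the VWF effect by time, 48.8% for the LPS effect by time and 52.7% for VWF minus LPS. The number that passed is near these shares. The effect of VWF on Ifngr1 was lower at 16 h than at 3.5 h by a log2 value of -0.95, and the effect of LPS by -1.64. The effect of LPS on Ifngr2 was higher at 16 h by 0.84. The VWF minus LPS difference changed from 3.5 h to 16 h by -0.62 for Ifnar1, -1.05 for Ifnar2, 0.70 for Ifngr1 and -1.03 for Ifngr2.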

How the results depend on the processing

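Of 58 tested values of the 5 members, 34 kept their direction and their side of the threshold under every alternative run, among them Ifnb1 and Ifngr1 in VWF against LPS at both times. Library size scaling, which moved the median of all genes with LPS by over 0.5, changed the most calls. With it the LPS against control values at 3.5 h were 0.27 for Ifnar2, -0.37 for Ifngr1 and -0.19 for Ifngr2, and that of Ifnar2 at 16 h was 0.87 (adjusted p = 0.0533). The VWF against LPS values at 3.5 h rose to 0.45 for Ifnar1, 0.60 for Ifnar2 and 0.48 for Ifngr2 and passed, and those at 16 h were 0.0014 for Ifnar1 and -0.30 for Ifnar2. Ifnar1 with time in controls was -0.45, Ifngr1 with time in VWF cultures -0.22, and the change of the VWF minus LPS difference of Ifnar1 -0.45, all without passing. That last value was -0.56 with no filter and missed the threshold. Ifnar2 with VWF against control at 16 h passed with filterByExpr (0.71), DESeq2 (0.66) and all groups in one fit (0.65). With all groups in one fit, Ifngr2 with LPS at 3.5 h (0.32) and with time in VWF cultures (-0.33) missed it. DESeq2 passed the interactions with time of Ifnb1 for VWF (-3.51) and LPS (-3.73) and of Ifnar1 for VWF (-0.43).

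The replicate block took Ifngr2 with LPS at 3.5 h to 0.30 (edgeR adjusted p = 0.0541) and Ifnar1 with time in controls to -0.42 (edgeR adjusted p = 0.0627). Both passed in the main fit and also missed the threshold with library size scaling. The block changed no other call. For VWF against LPS at 16 h, same-numbered cultures deviated together in all 4 pairs. The labels do not say what a number stands for. The blocked values of this comparison were -0.41 for Ifnar1, -0.66 for Ifnar2, 1.41 for Ifngr1 and -0.75 for Ifngr2.

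Leaving out 1 culture changed a call in the following ranges. VWF against LPS ranged from 0.18 to 0.40 for Ifnar2 at 3.5 h and from -0.56 to -0.36 for Ifnar1 at 16 h. VWF against control at 16 h ranged from 0.46 to 0.72 for Ifnar2 and from 0.23 to 0.54 for Ifngr2. With time, Ifnar1 in controls ranged from -0.50 to -0.34, Ifngr2 in controls from -0.39 to -0.072, Ifngr2 in VWF cultures from -0.40 to -0.26 and Ifnar2 in LPS cultures from 0.17 to 0.49. The VWF effect by time ranged from -4.79 to -3.33 for Ifnb1, -0.51 to -0.34 for Ifnar1, -0.59 to -0.33 for Ifnar2 and -0.29 to 0.062 for Ifngr2. The LPS effect by time ranged from -5.09 to -3.63 for Ifnb1 and from 0.46 to 0.82 for Ifnar2, and the change of the VWF minus LPS difference of Ifnb1 from -0.20 to 0.48. Control replicate 5 at 16 h decided 5 of these calls (Ifnar2 and Ifngr2 with VWF at 16 h, Ifngr2 with time in controls, and the VWF effect by time of Ifnar1 and Ifnar2). Without LPS replicate 2 at 3.5 h, Ifnar2 in VWF against LPS passed (0.40), and without LPS replicate 4 at 16 h, Ifnar2 with time in LPS cultures (0.49) and its LPS effect by time (0.82) passed. Without control replicate 2 at 3.5 h, which held 7 of the 11 Ifnb1 reads of its group, the Ifnb1 effects by time passed (-4.79 and -5.09).

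The log2 ratio of Ifngr1 to Ifngr2 ranged without 1 culture from 0.31 to 0.44 for VWF against control at 3.5 h, 0.49 to 0.66 for VWF against LPS at 3.5 h, -2.99 to -2.43 for LPS against control at 16 h, 2.00 to 2.45 for VWF against LPS at 16 h and -0.73 to -0.26 for VWF against control at 16 h. That of Ifnar1 to Ifnar2 ranged from -0.0050 to 0.21 for VWF against control at 16 h. With fewer cultures the smallest p that the exact permutation test can give is larger. With group medians the 4 Ifngr1 to Ifngr2 differences were 0.33, 0.58, -2.82 and 2.22 with an adjusted p of 0.114 each.

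The counts of called genes were higher with filterByExpr, with no filter and with no fold threshold, given in that order. They went from 1206 to 2099, 2366 and 3578 for VWF against control at 3.5 h, from 2010 to 3917, 4542 and 5384 for LPS against control at 3.5 h, from 856 to 1776, 1942 and 3768 for VWF against LPS at 3.5 h, and at 16 h from 679 to 1362, 1378 and 2163, from 2210 to 4087, 4224 and 4293, and from 1932 to 3897, 4242 and 4586. With time they went from 759 to 1565, 1524 and 3446 in controls, from 1696 to 3458, 3974 and 5392 in VWF cultures and from 1964 to 4116, 4298 and 4253 in LPS cultures. For the interactions they went from 1171 to 1972, 1904 and 2807 for VWF, from 2301 to 3790, 3613 and 4267 for LPS and from 2052 to 3576, 3528 and 4329 for VWF minus LPS. With library size scaling the share of calls that were higher moved from 62.4% to 48.8% for VWF and from 52.1% to 24.7% for LPS against control at 3.5 h, from 55.2% to 26.0% for LPS against control at 16 h, and from 41.2% to 68.8% and 43.3% to 71.1% for VWF against LPS at 3.5 h and 16 h. For the VWF interaction it moved from 40.5% to 51.8% and for VWF minus LPS from 42.8% to 56.6%. The cause was not tested. Few reads limit Ifnb1 in controls and in VWF cultures at 16 h.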
